A study of Mus musculus with 3 samples.

Results

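The 10 genes described here are 8 cathepsins, Ctsb, Ctsc, Ctsd, Ctsh, Ctsk, Ctsl, Ctss and Ctsz, and 2 cystatins, Cst3 and Cst7, chosen by name from the 23997 genes of an RNA-seq study of colonic macrophages. Each had a row in each of the 3 libraries, and all 10 passed the filter for tested genes, 1 FPKM or more on average, which 11114 genes passed. FPKM counts fragments for each kilobase of a transcript and scales them to library size, so levels of different genes can be compared within a library. A comparison between libraries also depends on that scaling, since the summed FPKM ranged from 569961 to 610714.

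Cathepsins are proteases that digest proteins in the acidic endosomes and lysosomes of phagocytes. Most are cysteine proteases of the papain family, and Ctsd is an aspartic protease. Cystatins are small proteins that block the active site of the cysteine cathepsins, either outside the cell or, for some members, inside the endocytic pathway. In macrophages this system breaks down engulfed material, trims the invariant chain that guards MHC class II molecules, and can reach the extracellular matrix when the enzymes are secreted.

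The cells were resident macrophages of the colon of untreated male C57BL/6 mice, sorted as CD64-positive cells with low Ly6C and no Siglec-F. Control mice, called WT, carried only Lyz2-Cre, a Cre recombinase driven from the lysozyme 2 locus and active in myeloid cells in general, so every group carried Cre. Tle3cKO mice were Tle3f/f Lyz2-Cre and Tle4cKO mice were Tle4f/f Lyz2-Cre, with loxP sites around part of a Groucho-family corepressor gene. The mice were 9 weeks old in one label and 8.9 weeks old in another. Pools of 4 mice (WT), 3 mice (Tle3cKO) and 4 mice (Tle4cKO) gave 1 library per genotype. No replicate spread was measured, so no difference below has a standard error or a test.

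Tle3, the targeted gene, went against its label: it was at 38.6 FPKM in WT, 70.7 in the Tle3cKO-labelled library and 46.9 in Tle4cKO. Tle4 was at 8.50, 11.0 and 5.80 FPKM in the same order. A gene-level value does not show the deleted exons separately. Fragment totals are not given in the sources used. All 11 macrophage markers with a row were present in every library, among them Fcgr1, which encodes CD64, at 33.3 FPKM in WT, 36.0 in the Tle3cKO-labelled library and 39.2 in Tle4cKO. The summed macrophage markers were at 4963, 4374 and 4606 FPKM. Markers of other cells were also measured. Epithelial markers summed to 2.73, 7.0 and 41.9 FPKM, B and plasma cell markers to 146, 197 and 346, and stromal and endothelial markers to 243, 288 and 274. Glial markers were lower in Tle4cKO, at 18.0, 18.4 and 6.44. T, natural killer and innate lymphoid markers summed to 340.5, 347 and 337, mast cell and neutrophil markers to 184, 189.9 and 194, and markers of the cells gated out to 20.5, 20.7 and 19.6. In bulk RNA, a change in the number of cells of a type and a change in RNA per cell cannot be told apart.

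Short stretches near the RefSeq transcription start of 3 members are shown because these genes differ most among the abundant cathepsins or carry the E-box CACGTG, the core of the element bound by the lysosomal regulator TFEB. RefSeq promoters of build GRCm38.p6, from 250 bases before to 50 after the start, were found for 8 of the 10 members. Both strands were searched for CACGTG and for GAAANNGAA, most of the core of the interferon-stimulated response element. Capitals mark the match.

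Ctsd: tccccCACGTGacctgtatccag

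Ctsl: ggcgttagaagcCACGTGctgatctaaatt

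Ctss: gtctttaaatGAAACCGAAatgaaagttc

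The Ctsd stretch lies at chr7:142388055-142388077 on the minus strand, with its E-box starting 245 bases before the RefSeq start, and a further CACGTG of Ctsd starts 98 bases before that start. The Ctsl stretch lies at chr13:64370739-64370768 on the minus strand, with the E-box 236 bases before the RefSeq start. GENCODE places other starts for these genes. On its M21 annotation the Ctsl stretch lies inside Ctsl, with 15 of its 30 bases in an exon, and the nearer Ctsd match lies in an exon of Ctsd. The Ctsd and Ctss stretches shown lie outside the annotated spans of Ctsd and Ctss, and overlap with other genes was not checked. Of the 8 promoters, 2 held CACGTG, against 7.15% of 32851 promoters of this length. The Ctss stretch lies at chr3:95526755-95526783 on the plus strand, with GAAANNGAA starting 21 bases before the RefSeq start. Ctss was the 1 member of 8 with this motif, which 8.56% of all promoters held. The other motifs searched were GAGGAA, the core bound by the myeloid factor PU.1, in 4 of 8 members and 28.3% of promoters, TATAAA in 1 of 8 and 13.6%, and CCAAT in 1 of 8 and 37.4%. Neither CACGTG nor GAAANNGAA was in the 300-base window of Cst7, and a match to letters is a description, not a binding site.

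The cathepsins and cystatins fell into an abundant set of 8 genes and a scarce pair. Cst3 was the highest member in every library and among the 18 highest of all genes there. Ctss followed, then Ctsz and Ctsb, and these 4 genes were among the 100 highest in each library. Ctsd, Ctsc, Ctsh and Ctsl lay between 256 and 445.5 FPKM. Ctsk and Cst7 were below 10 FPKM everywhere, with a gap of at least 27.4-fold to the next member above. Together the 10 genes held 1.15% of the summed FPKM in WT, 1.15% in the Tle3cKO-labelled library and 1.19% in Tle4cKO.

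**Figure D1:**
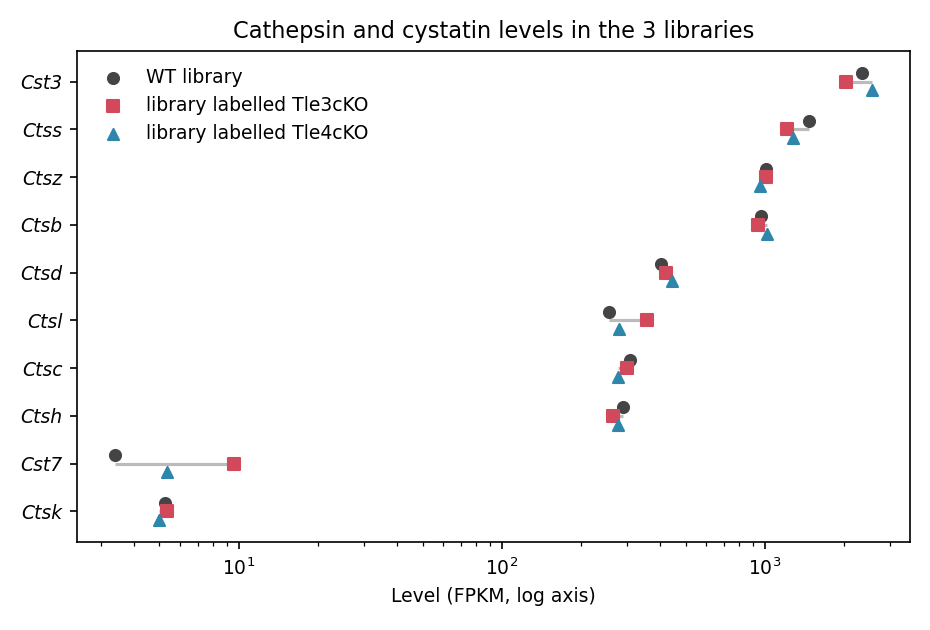
Level of each member in FPKM on a log axis, with 1 point for each library and a grey line from the lowest to the highest library. Cst3 is the highest member in every library, Cst7 spreads widest, from 3.39 to 9.63 FPKM, and the points of Ctsk, Ctsz and Ctsb nearly coincide.

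Ctss encodes cathepsin S, the protease that removes the last part of the invariant chain from MHC class II in antigen-presenting cells, and stays active at neutral pH. Ctss (ENSMUSG00000038642.10, chromosome 3, 95526786 to 95556403, plus strand) was at 1469 FPKM in WT, 1212 in the Tle3cKO-labelled library and 1275 in Tle4cKO. It was highest in WT, with both other libraries close to each other. The log2 ratio to WT, here and below of FPKM plus 1, was -0.28 for the Tle3cKO-labelled library and -0.20 for Tle4cKO. Its share of the summed cathepsins was 31.3% in WT, 26.9% in the Tle3cKO-labelled library and 28.1% in Tle4cKO. The summed macrophage markers and the library totals followed the same order. The highest of the 11 markers, C1qa, C1qb and C1qc, had it too, as did Emr1 and Aif1. Fcgr1, Csf1r, Cd68, Cx3cr1, Mertk and Itgam did not. In each comparison with WT, 8 of the 11 markers were lower, and 5822 and 5626 of all 11114 tested genes were. The part of macrophage content and of the library totals in the result was not tested. After scaling to equal totals the log2 ratio of Ctss in the Tle3cKO-labelled library was -0.18. A processed pseudogene, Hmgb1-ps5, lies within the span of Ctss on the same strand.

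Ctsl encodes cathepsin L, a broad lysosomal endopeptidase that can also cleave the invariant chain and extracellular matrix. Ctsl (ENSMUSG00000021477.9, chromosome 13, 64359337 to 64370890, minus strand) was at 256 FPKM in WT, 356 in the Tle3cKO-labelled library and 278 in Tle4cKO. Only the Tle3cKO-labelled library stood well above WT, by a log2 ratio of 0.47, against 0.12 for Tle4cKO. Among the 846 genes at 100 FPKM or more on average, a limit chosen after the values were seen, 12 had a ratio as high in the Tle3cKO-labelled library, Ctsl included. The ratio of Ctss to Ctsl was 5.74 in WT, 3.41 in the Tle3cKO-labelled library and 4.58 in Tle4cKO. Stromal and endothelial markers had the same order of libraries as Ctsl, with 7 of 9 above WT in the Tle3cKO-labelled library and 8 of 9 in Tle4cKO. Of all 11114 tested genes, 5289 and 5488 were above WT. The part of stromal and endothelial cells in the result was not tested. An antisense gene, Gm47123, overlaps Ctsl, and no source used here gives the strandedness, so reads of the pair cannot be told apart. A processed pseudogene, Gm49230, also overlaps Ctsl on the same strand.

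The other abundant cysteine cathepsins differed little. Ctsb encodes cathepsin B, an endopeptidase that also trims dipeptides from the carboxyl end of proteins, and was at 963 FPKM in WT, 943 in the Tle3cKO-labelled library and 1016 in Tle4cKO. Ctsz encodes cathepsin Z (also called X), a carboxypeptidase, and was at 1007, 1007 and 959 FPKM. These neighbours in the order of levels were within 1.07-fold of each other in every library, and Ctsb passed Ctsz in Tle4cKO. Ctsc encodes cathepsin C, the dipeptidyl peptidase that activates granule serine proteases, and was at 308, 299 and 277 FPKM. Ctsh, for the aminopeptidase cathepsin H, was at 288, 264 and 278 FPKM. All 4 genes differed by at most 1.11-fold between their highest and lowest library. The annotated gene spans of Ctsb and Ctsz overlap those of Fdft1 and Nelfcd, which lie on the opposite strand.

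Ctsd, the aspartic protease cathepsin D, was at 402 FPKM in WT, 422 in the Tle3cKO-labelled library and 445.5 in Tle4cKO. Its log2 ratios to WT were 0.07 and 0.15. Both libraries were above WT, within 1.11-fold. The annotation places Gm49369 over the same span on the same strand, so the 2 genes' reads may have been divided by estimation.

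Ctsk encodes cathepsin K, the collagen-cleaving protease of osteoclasts, which is also made by fibroblasts. Ctsk (ENSMUSG00000028111.4, chromosome 3, 95499256 to 95509362, plus strand) was at 5.27 FPKM in WT, 5.32 in the Tle3cKO-labelled library and 4.98 in Tle4cKO, and the 3 values lay within 1.07-fold. It is the genomic neighbour of Ctss, with a gap of 17423 bases and no other protein-coding gene between them. The level of Ctss was 279 times that of Ctsk in WT, 228 times in the Tle3cKO-labelled library and 256 times in Tle4cKO.

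Cst3 encodes cystatin C, a secreted inhibitor of cysteine cathepsins that is abundant in macrophages and dendritic cells. Cst3 (ENSMUSG00000027447.6, chromosome 2, 148871722 to 148875692, minus strand) was at 2349 FPKM in WT, 2026 in the Tle3cKO-labelled library and 2551 in Tle4cKO. The lowest value was in the Tle3cKO-labelled library and the highest in Tle4cKO. The log2 ratio of Tle4cKO to the Tle3cKO-labelled library was 0.33, which 18 of the 846 genes above the same limit reached, Cst3 included. With equal totals this ratio was 0.26, close to 1.2-fold. Against WT, 103 of the 846 genes were as low in the Tle3cKO-labelled library and 124 as high in Tle4cKO, Cst3 included. The level of Cst3 relative to the summed cysteine cathepsins was 0.547 in WT, 0.496 in the Tle3cKO-labelled library and 0.624 in Tle4cKO. The 7 dendritic cell markers, all present in every library, summed to 356, 268 and 379 FPKM, the same order of libraries as Cst3. Most of that sum was Ccr7, a receptor of migrating dendritic cells, at 305, 216 and 316 FPKM. Without Ccr7 the sum was 50.1, 52.1 and 62.8, another order. By gene, Zbtb46, Xcr1 and Clec9a had the order of Cst3, as Ccr7 did, while Flt3, Itgae and Dpp4 did not. Of the 7 markers, 5 were below WT in the Tle3cKO-labelled library and 6 above WT in Tle4cKO. Of all 11114 tested genes, 5822 were below and 5488 above WT in these comparisons. The part of dendritic cells in the result was not tested.

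Cst7 encodes cystatin F, which differs from cystatin C in being sent to endosomes and lysosomes, where it restrains cathepsin C and related enzymes. Cst7 (ENSMUSG00000068129.5, chromosome 2, 150570415 to 150578944, plus strand) was at 3.39 FPKM in WT, 9.63 in the Tle3cKO-labelled library and 5.34 in Tle4cKO. It was the lowest member in WT, below Ctsk, and stood above Ctsk in both other libraries. Its log2 ratio to WT was 1.28 for the Tle3cKO-labelled library and 0.53 for Tle4cKO, and the log2 ratio of Tle4cKO to the Tle3cKO-labelled library was -0.75. On the unshifted FPKM scale the first of these was 2.84-fold. The level of Ctsc relative to Cst7 was 91.0 in WT, 31.0 in the Tle3cKO-labelled library and 52.0 in Tle4cKO.

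Natural killer and T cells also express Cst7. Of the 7 measured markers of those cells, the genes of the T cell receptor complex were lowest in WT and highest in Tle4cKO: Cd3e was at 0.401 FPKM in WT, 1.55 in the Tle3cKO-labelled library and 1.70 in Tle4cKO, Cd3d at 0.630, 1.07 and 1.26, and Cd3g at 0.748, 0.844 and 0.956. Nkg7 was at 1.44, 1.23 and 1.40, Prf1 at no more than 0.155 and Ncr1 at no more than 0.1 in any library. Without Il7r, at 337, 342 and 332 FPKM, the sum of these markers was 3.48, 4.77 and 5.54, above WT in both other libraries, as Cst7 was. No marker of this list was at 0 in all libraries. Gzma, granzyme A of cytotoxic lymphocytes, had the order of Cst7, at 0.094, 1.46 and 0.154 FPKM, but was under the filter of 1 FPKM. Gzmb, granzyme B, passed the filter and had another order, lowest in Tle4cKO, at 2.57, 3.47 and 2.16 FPKM. Ctsw, another cathepsin, of cytotoxic lymphocytes, was at 0.662, 0.682 and 0.594. Stromal and endothelial markers also had the order of Cst7. The part of these cells in the result was not tested.

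Counted over the members, 2 of 10 were at least 1.2-fold higher in the Tle3cKO-labelled library than in WT (Ctsl and Cst7), while 9.96% of all tested genes were. At least 1.2-fold lower was 1 of 10, Ctss, against 8.0% of tested genes; with equal totals or the same upper quartile it was 0. Past 2-fold in either direction was 1 of 10, Cst7, against 0.423%, and with a pseudocount of 5 FPKM it was 0. In Tle4cKO against WT, Cst7 was the 1 member at least 1.2-fold higher (7.73% of tested genes), no member was at least 1.2-fold lower (8.69%) and none passed 2-fold (0.648%). In Tle4cKO against the Tle3cKO-labelled library, Cst3 was the 1 member at least 1.2-fold higher (7.41% of tested genes), Ctsl and Cst7 were the 2 lower (9.74%), and none passed 2-fold (0.729%). The shares of all tested genes were computed without scaling and with a pseudocount of 1. At 1.2-fold the member counts for that setting lie near them. Past 2-fold the 1 gene is Cst7, whose difference was known when the members were chosen. The median log2 ratio of the members was -0.02 (0.08 with equal totals), 0.01 and 6.9e-05 in these 3 comparisons. That of all tested genes was -0.01 (also 0.08 with equal totals), -0.003 and 0.009. Ratios above 0 were found for 4, 5 and 5 of the 10 members, and for 5289, 5488 and 5821 of the 11114 tested genes. Both comparisons with WT share the WT library.

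**Figure D2:**
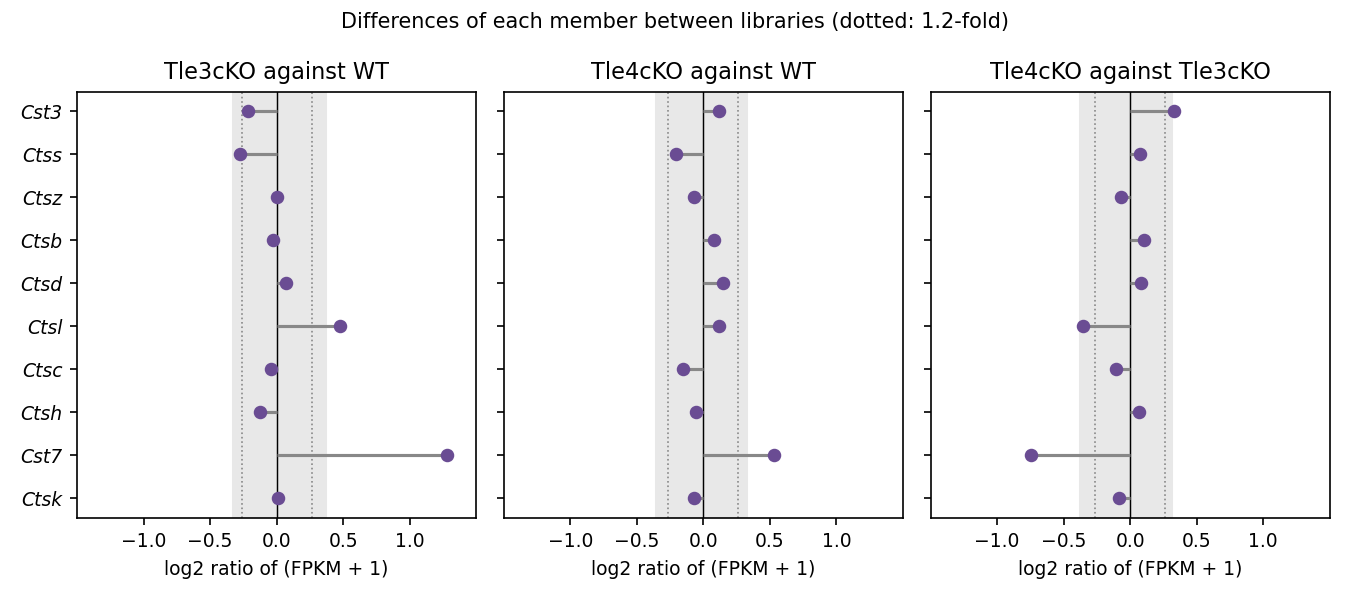
Log2 ratio of FPKM plus 1 for each member in the 3 comparisons between libraries, with grey bands from the 5th to the 95th percentile of all 11114 tested genes and dotted lines at 1.2-fold. Ctsl and Cst7 lie above the band in the first panel, Cst7 in the second, and in the third Cst3 lies above it and Cst7 below.

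**Figure D3:**
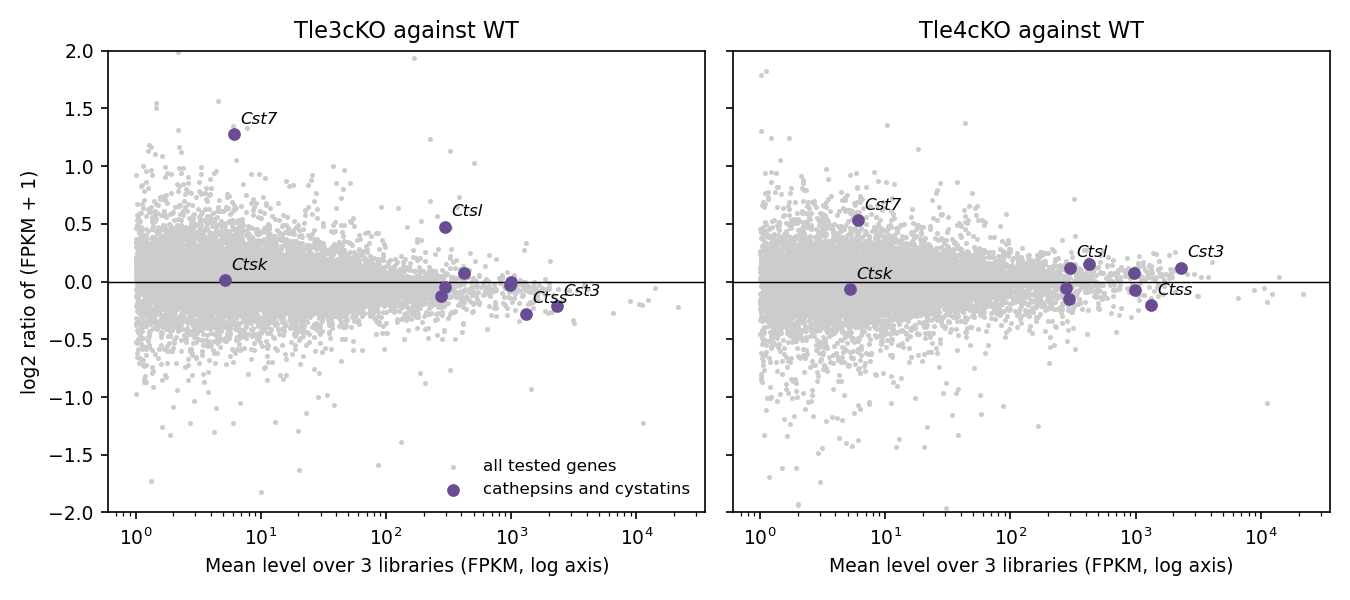
Log2 ratio against mean level in FPKM on a log axis for all tested genes in grey and the members in purple; 7 genes in the left panel and 14 in the right lie beyond the axis limit of 2 on the log2 scale. The spread of grey points narrows with level, and Ctsl at 0.47 lies near the edge of the genes at its level in the left panel.

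Genes with the pattern most like that of a member were taken by the Euclidean distance of their log2 ratios to WT over the 3 libraries, among 7405 named genes at 5 FPKM or more on average. For Cst7 the nearest was Alox5, the 5-lipoxygenase of leukotriene synthesis, at 4.25 FPKM in WT, 12.2 in the Tle3cKO-labelled library and 6.86 in Tle4cKO, a distance of 0.07. The next was Serpinb6a, an intracellular inhibitor of serine proteases, at a distance of 0.28, followed by Cd163, Bhlhe41 and Eif3j2 at 0.30 to 0.33. For Ctsl the nearest 5 genes were Tfrc, Cd28, Tlr2, Rell1 and Mrpl1, at distances of 0.02 to 0.03. For Ctss they were Itgal, Pink1, Zxdb, Vasp and Mrpl37, and for Cst3 Sys1, Stk4, Csrp2, Irf8 and Coro2a, at distances up to 0.02.

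Of the other cathepsins, Ctsa, the serine carboxypeptidase also called protective protein, was at 163, 162 and 156 FPKM in WT, the Tle3cKO-labelled library and Tle4cKO. Ctsf, a cysteine cathepsin, was at 9.39, 9.24 and 10.7 FPKM and Ctso at 8.65, 8.61 and 7.52. Ctse, an aspartic protease, was at 1.30, 0.863 and 1.89. A further 10 genes of the list were at 0 in every library, among them Ctsg and the placental cathepsins.

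The cytosolic inhibitor Cstb, stefin B, was as abundant as the main cathepsins, at 816 FPKM in WT, 847 in the Tle3cKO-labelled library and 852 in Tle4cKO. The stefin A genes, cytosolic cystatins that form a cluster of near-identical copies in the mouse, were scarce. Stfa2l1 was at 0.441, 3.21 and 0.719 FPKM, 2010005H15Rik at 0.244, 2.52 and 1.59, and Gm5483 at 0.435, 1.81 and 1.76. All 3 were lowest in WT, but they reached a mean of 1 FPKM only through the libraries where they were higher, and reads of such copies are divided by estimation. Stfa2, also of this family but under that filter, went the other way, at 1.28, 0.442 and 0.346 FPKM.

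Serpins of the intracellular clade and of the Serpina3 cluster, which inhibit serine proteases and in part cathepsins, were measured in the same libraries. Serpinb6a was at 25.4 FPKM in WT, 51.8 in the Tle3cKO-labelled library and 36.0 in Tle4cKO, a log2 ratio of 1.0 in the first comparison. Serpinb6b was at 36.2, 39.0 and 54.1 FPKM, Serpinb9 at 97.8, 102 and 113, and Serpinb8 at 25.9, 26.6 and 27.1. Serpina3f, the scarcest of the 7 tested serpins, was at 1.37, 0.298 and 1.84 FPKM. Of these 7, 4 were above WT in the Tle3cKO-labelled library and 7 in Tle4cKO, with medians of 0.04 and 0.24. Of all 11114 tested genes, 5289 and 5488 were above WT. Past 1.2-fold, 1 serpin was higher and 3 lower in the Tle3cKO-labelled library (9.96% and 8.0% of tested genes). In Tle4cKO 2 were higher and 0 lower (7.73% and 8.69%). With equal totals these counts were 1 and 1, and 4 and 0, a setting for which the shares of all tested genes were not computed.

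Other lysosomal proteases were near WT. Lgmn, the asparaginyl endopeptidase legumain that processes cathepsin precursors, was at 1075 FPKM in WT, 949 in the Tle3cKO-labelled library and 1036 in Tle4cKO. Scpep1 was at 287, 283 and 303, Prcp at 99.8, 99.97 and 104, and Napsa, an aspartic protease, at 74.1, 86.6 and 64.7. None of the 7 genes passed 1.2-fold against WT in either direction. In the Tle3cKO-labelled library, however, 1 was past it on the higher side with equal totals, and 1 on the lower side with a pseudocount of 0.1. Of all tested genes, the shares past 1.2-fold given above were 9.96% higher and 8.0% lower for that library. These shares are without scaling and with a pseudocount of 1, and were not computed for the other settings. The median log2 ratio was -0.02 in the Tle3cKO-labelled library, or 0.08 with equal totals, and -0.05 in Tle4cKO. For all tested genes it was -0.01, or also 0.08 with equal totals, and -0.003.

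The genes for MiT transcription factors, which switch on lysosomal genes through E-boxes, were all lower than in WT in both libraries, by small amounts, except that with equal totals 1 of the 4 was higher in the Tle3cKO-labelled library. Tfe3 was at 35.2, 28.1 and 29.8 FPKM, Tfeb at 13.5, 12.6 and 12.3, Mitf at 9.90, 9.42 and 8.67, and Tfec at 10.4, 8.97 and 9.58. The medians were -0.15 in both comparisons, and both use the same WT library. Of all 11114 tested genes, 5822 were lower than WT in the Tle3cKO-labelled library and 5626 in Tle4cKO. Of 4 genes, 1 passed 1.2-fold, Tfe3 in the Tle3cKO-labelled library, where 8.0% of tested genes were at least 1.2-fold lower. With equal totals it was 0, and the all-gene counts and shares were not computed for that setting.

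The invariant chain gene Cd74, whose product cathepsin S cleaves, was at 23181 FPKM in WT, 19940 in the Tle3cKO-labelled library and 21504 in Tle4cKO. H2-Aa was at 12118, 10500 and 10692, H2-Ab1 at 11186, 9752 and 10791, and H2-Eb1 at 7159, 5926 and 6468. Of 11 class II and processing genes 10 were lower than WT in each comparison, or 8 and 7 with equal totals, with medians of -0.20 and -0.05. Lower than WT among all 11114 tested genes without scaling were 5822 and 5626, with medians of -0.01 and -0.003. The all-gene medians were 0.08 and 0.02 with equal totals. All-gene counts and shares past a fold were not computed at that setting. At least 1.2-fold lower were 3 in the Tle3cKO-labelled library and 1 in Tle4cKO, against 8.0% and 8.69% of tested genes, and 1 each with equal totals. The exception was H2-DMb2, at 63.0, 79.7 and 75.5 FPKM, with a log2 ratio of 0.34 in the Tle3cKO-labelled library, past 1.2-fold higher. Ctss shared the order of libraries with Cd74, highest in WT and lowest in the Tle3cKO-labelled library.

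Of the 38 other lysosomal hydrolase and membrane genes, 15 were above WT in the Tle3cKO-labelled library and 17 in Tle4cKO, with medians of -0.08 and -0.02. With equal totals these counts were both 21, and the medians 0.02 and 0.004. Without that scaling, 5289 and 5488 of all 11114 tested genes were above WT. The all-gene counts with equal totals were not computed, so list counts at that setting have no count to compare with. The all-gene medians were -0.01 and -0.003, or 0.08 and 0.02 with equal totals. The most abundant was Psap, the precursor of the saposins that help degrade sphingolipids, at 3443 FPKM in WT, 2741 in the Tle3cKO-labelled library and 3156 in Tle4cKO. Cd63, a tetraspanin of late endosomes, was at 702, 804 and 769, Laptm5 at 780, 665 and 749.98 and Lamp1 at 490.0, 466 and 478. Of the 16 subunits and partners of the proton pump that acidifies lysosomes, 8 and 12 were above WT, or 13 and 12 with equal totals, with medians of 0.01 and 0.04. The medians with equal totals were 0.11 and 0.07, beside 0.08 and 0.02 for all tested genes. Atp6v0c, its most abundant gene, was at 1231, 1131 and 1266 FPKM. Atp6v0b was at 367, 375 and 358, Atp6v1f at 299, 293 and 318 and Atp6v0e at 263, 257 and 283.

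**Figure D4:**
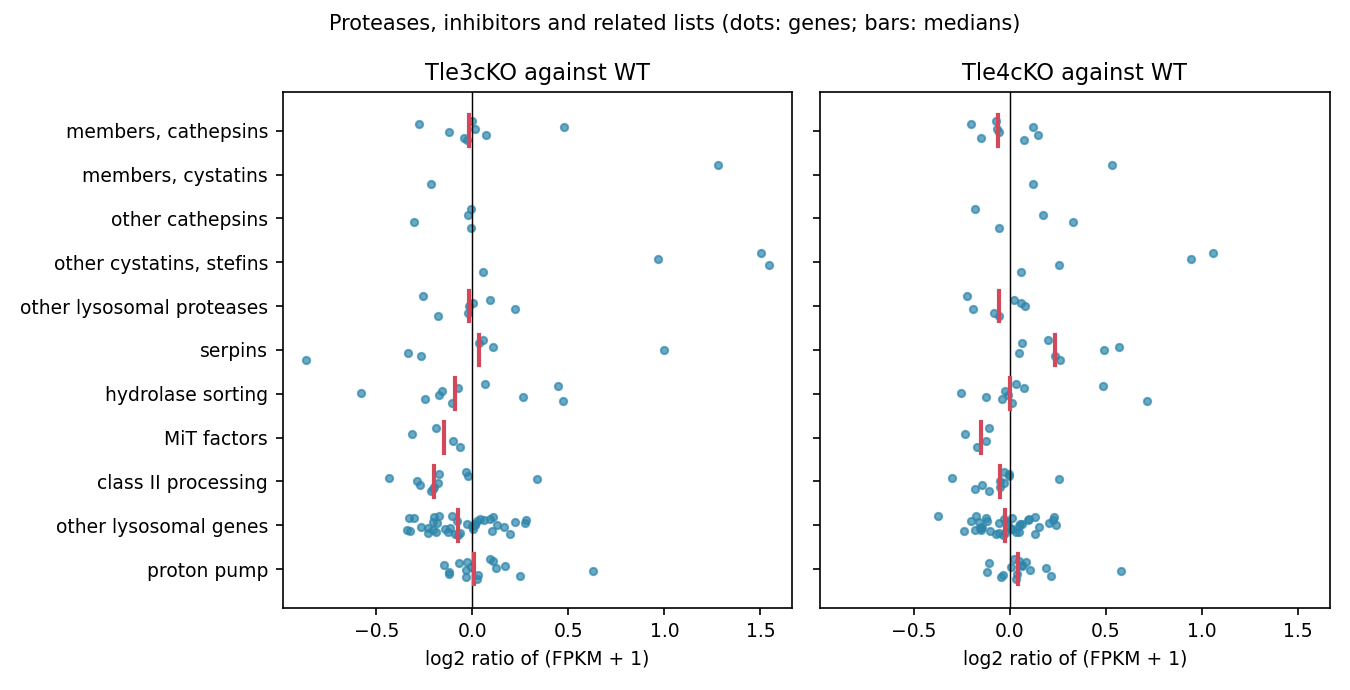
Log2 ratio to WT of FPKM plus 1 for the tested genes of each list in the Tle3cKO-labelled library (left) and Tle4cKO (right), with 1 dot per gene and a bar at the median where the list is described by one. Most cathepsins and lysosomal genes lie near 0. Cst7 and Serpinb6a lie to the right in both panels, as do Igf2r, Gga2 and the proton pump gene Atp6v0d2. In the right panel Igf2r, Atp6v0d2 and Serpinb6b lie further right than Cst7. The stefin A genes shown passed the filter through the libraries where they were higher, which fixes their place.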

How the data were processed

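The authors deposited FPKM per gene, per the file headers, in 1 table per library. TopHat2 version 2.1.0, Cufflinks version 2.2.1 and the build mm10 are named in the submitters' processing notes, without the part each played. FPKM depends on transcript length and on the other genes of the library. Such values are not counts and no source used here gives fragment totals, so no counting error or detection limit was computed. With 1 pooled library per genotype there was no test: each gene's log2 ratio of FPKM plus a pseudocount of 1 was computed, and genes past 1.2-fold and 2-fold were counted among the 11114 with a mean of at least 1 FPKM.

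The members and lists were chosen with earlier results of these data known. Named were all members, other cathepsins and cystatins with a mean of at least 1 FPKM, the 4 most abundant genes of each further list, genes past 2-fold, and the 5 genes nearest to each member past 1.2-fold. Marker lists are given as sums. Stfa2, Igf2r, Gga2, Gnptg, Sort1, Atp6v0d2, H2-DMb2 and the single markers were named after their values were seen. Identifiers and positions are from GENCODE release M21, which held all 10 members, on the same build. Pseudocounts of 0.1 and 5, 3 scalings and 3 filters were tried. The steps were tested on simulated data. Python 3.11.15, numpy 2.4.6, pandas 2.3.3 and matplotlib 3.10.9 were used.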

Additional observations from a re-analysis of the deposited data

How the results depend on the processing

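No paired analysis was possible because each genotype is 1 library, and for the same reason no replicate could be left out. A value was said to move when it differed by at least 0.1 on the log2 scale, or a count or share by over 1.5 times. Of the 30 log2 ratios of members, 27 kept their sign under the other pseudocounts and scalings. The exceptions were Ctsb, Ctsc and Ctsz in the comparison of the Tle3cKO-labelled library (Tle3cKO below) with WT, which were just below 0 as reported and up to 0.07, 0.06 and 0.10 otherwise. Cst7 was smallest in size with a pseudocount of 5, at 0.80, 0.30 and -0.50 in the order of the comparisons above, and was 1.48 and 0.64 against WT with one of 0.1. With a pseudocount of 5, 0 members passed 2-fold in Tle3cKO against WT. Scaled to equal totals or to the same upper quartile, 0 members were at least 1.2-fold lower there, since Ctss lies close to the limit. None of the 24 medians of the members and lists moved by 0.1, but 10 of them, all within 0.092 of 0, changed sign under some setting. In Tle3cKO against WT equal totals turned 4: from -0.02 to 0.08 for the members and for other lysosomal proteases, from -0.09 to 0.007 for hydrolase sorting and from -0.08 to 0.02 for other lysosomal genes. The median of all tested genes turned as well, from -0.01 to 0.08, so these turns are not particular to the lists. The medians of class II and MiT genes kept their sign there, at -0.10 and -0.06. The shares of all genes past a fold moved with the filter on low genes. With no filter, 5.11% and 5.77% were at least 1.2-fold lower in Tle3cKO and Tle4cKO against WT, and 0.392% and 0.442% passed 2-fold in Tle4cKO against WT and against Tle3cKO. At a mean of at least 5 FPKM, 6.43% were 1.2-fold higher in Tle3cKO against WT, 0.379% passed 2-fold in Tle4cKO against WT, and 6.10% were 1.2-fold lower in Tle4cKO against Tle3cKO. At 10 FPKM, 5.04% and 4.27% were 1.2-fold higher in Tle3cKO and Tle4cKO against WT, 4.90% were lower in Tle4cKO against WT and 4.35% in Tle4cKO against Tle3cKO, and 0.334% and 0.474% passed 2-fold in these last comparisons. The depth behind FPKM is unknown here, which limits Cst7 and Ctsk, the scarce members, most.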

Other observations

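Granule serine proteases, which cathepsin C activates by removing a dipeptide, were scarce in all 3 libraries, and 2 of 11 passed the filter of 1 FPKM. Gzmb, granzyme B, was at 2.57 FPKM in WT, 3.47 in the Tle3cKO-labelled library and 2.16 in Tle4cKO. Mcpt1, a mucosal mast cell protease, was at 2.03, 0.894 and 0.509 FPKM. Gzma, granzyme A, was at 0.094, 1.46 and 0.154, under that mean, and Mcpt2, of the same mast cells, at 0.441, 0.548 and 0.218. Ctsc itself was at 308, 299 and 277 FPKM.

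Of the genes that deliver hydrolases to lysosomes, M6pr, the cation-dependent mannose 6-phosphate receptor, was at 276 FPKM in WT, 257 in the Tle3cKO-labelled library and 278 in Tle4cKO. Igf2r, the cation-independent receptor, was at 4.65, 6.84 and 8.26 FPKM, with log2 ratios to WT of 0.47 and 0.71. Gga2 was at 14.1, 19.5 and 20.1 FPKM, Gnptg at 17.6, 21.4 and 16.1, and Sort1 at 2.03, 1.03 and 1.55. Past 1.2-fold, 3 of the 10 genes were higher and 1 lower in the Tle3cKO-labelled library (9.96% and 8.0% of tested genes). In Tle4cKO 2 were higher and 0 lower (7.73% and 8.69%). Scarb2 was at 61.0, 54.6 and 60.0, Gga1 at 28.4, 26.8 and 29.9 and Gnptab at 21.3, 17.8 and 20.7. Of the 10 genes 4 were above WT in the Tle3cKO-labelled library and 5 in Tle4cKO, with medians of -0.09 and 0.003. With equal totals the counts were 5 and 7 and the medians 0.007 and 0.03. Without that scaling, 5289 and 5488 of all 11114 tested genes were above WT, and these counts were not computed with equal totals. The all-gene medians were -0.01 and -0.003, or 0.08 and 0.02 with equal totals.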
